A study of Mus musculus with 12 samples.

Results

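The Mu and Pi classes of glutathione transferases were examined in cultured mouse melanoma cells and in tumors formed by cells of the same line. The members were taken by gene symbol from a list of 8 genes, and 7 of them (Gstm1, Gstm2, Gstm4, Gstm5, Gstm7, Gstp1 and Gstp2) had a row among the 17285 genes of both tables used. Gstm6, also listed, is not analysed here.

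The samples came from 4 groups of 3, 12 samples in all: cultured control cells, cultured NRF2 knockout cells, tumors of control cells and tumors of NRF2 knockout cells. All derive from the murine melanoma line #781, which came from a mouse melanoma model with Tyr-CreERT2, a tamoxifen-inducible Cre recombinase that acts in the melanocyte lineage, and a BRAF allele. NRF2 (gene Nfe2l2) was deleted with a pair of guide RNAs. For the tumors, 1 set of knockout and control cells was injected under the flank skin of immunocompetent C57BL/6 mice of both sexes, and some knockout injections formed no tumor or formed it later. The paper describes more than 1 independent set of these cells, and the sample titles do not say which set was cultured. The tumors are labelled as coming from different mice, but nothing says whether the cultured triplicates were grown as separate cultures. Poly(A) RNA was sequenced.

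Glutathione transferases join the tripeptide glutathione to electrophilic compounds, which makes these less reactive and ready for export from the cell. Mu and Pi enzymes are cytosolic dimers, and several of their genes are textbook targets of NRF2. In stressed cells NRF2 escapes its inhibitor KEAP1, pairs with small MAF proteins and binds antioxidant response elements in the promoters of such genes.

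The value used for each gene is the authors' mean level, in log2 CPM (the base-2 logarithm of a gene's reads scaled to a common library total), over the 6 samples of a table, knockout and control together. Each table therefore gives 1 number per gene with no spread between samples, and the comparison of knockout with control was not analysed here. No statistical test was possible, and every difference below is a description of 2 means. The tables were normalized separately, which bears on each level set across them.

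The low values show how these means were built. On the linear scale, the lowest value was 0.483 CPM in the culture table (523 genes at it) and 0.497 CPM in the tumor table (8 genes at it). Values just above it rose in steps of 0.0402 and 0.0415 CPM, and within the first 20 steps 100% and 87.7% of values lay within 0.05 of a whole step. The lowest value equals a constant of 12 steps in the culture table and 11.98 in the tumor table, and is taken here to stand for no reads. Values above 20 steps were not checked for whole steps. If a step is 1 read, the tables rest on about 24852799 and 24119149 reads, each pooled over 6 samples. "Net CPM" below is the level with that lowest value subtracted, and implied reads are net CPM divided by the step, rounded to a whole number. The 95% intervals are exact Poisson or binomial intervals on implied reads. They cover counting error only and say nothing of the variation between mice or cultures.

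The sequences of the 2 Pi genes are shown first because their similarity limits how their reads can be told apart. Gstp1 (chromosome 19, 4035407 to 4037985) and Gstp2 (4040285 to 4046023) are neighbours on the minus strand within 10.6 kb of the GRCm38 assembly, the build that mm10 names. Their coding sequences of 633 bases, for proteins of 210 residues, are 98.1% identical and differ at 12 bases. Of these, 6 fall in the first 60 coding bases, given here 5′ to 3′ with the differing bases in capitals:

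Gstp1: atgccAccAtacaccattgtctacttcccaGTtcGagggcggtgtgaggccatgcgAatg

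Gstp2: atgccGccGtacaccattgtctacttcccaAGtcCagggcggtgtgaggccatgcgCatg

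The last 303 coding bases, from 331 to 633, are the same in both genes. Of all windows of 50 bases in the annotated transcripts of Gstp2, 54.3% occur exactly in another gene, and 49.1% occur in Gstp1. For Gstp1 the share found in another gene is 33.7%. With windows of 75 bases the shares were 50.1% and 29.2%. The levels of the 2 genes are therefore uncertain as separate values, since the authors' handling of reads that match both is not given in the sources used here.

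Gstp1, the best known Pi enzyme and in human cells also described as a binding partner of the kinase JNK, had the highest level of the 7 genes in both tables, also per length as given further on. It stood at 6.06 log2 CPM in culture and 5.76 in tumors, above 77.8% and 72.9% of all genes. These levels stand for 1648 and 1292 implied reads. Its neighbour Gstp2 stood at 4.91 and 4.68 log2 CPM, or 738 and 604 implied reads. The ratio of Gstp1 to Gstp2 in net CPM, with no correction for length, was 2.23 in culture and 2.14 in tumors. Since many reads could match both genes, this ratio says little of either gene alone.

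The Pi genes were slightly lower in tumors. The difference of mean levels, tumors minus culture, was −0.31 log2 units for Gstp1 and −0.24 for Gstp2. With the lowest value subtracted, it was −0.31 (counting interval −0.41 to −0.20) for Gstp1 and −0.24 (−0.40 to −0.09) for Gstp2. Both lie inside the middle of the distribution over all genes, whose quartiles were −0.32 and 0.63 with a median of 0.10.

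**Figure D1:**
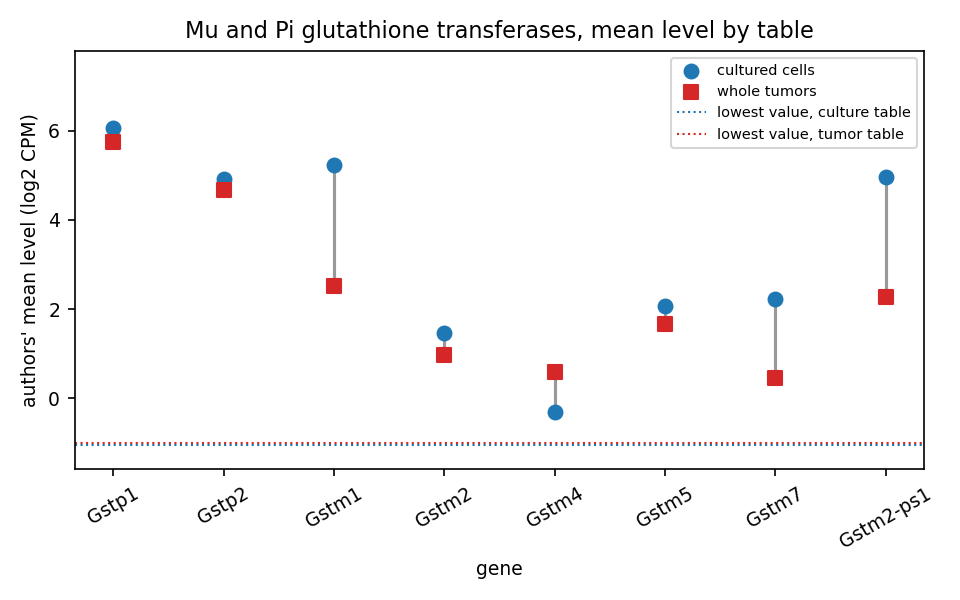
Mean level of each gene (authors' log2 CPM, vertical axis) in cultured cells (circles) and whole tumors (squares), each the mean of 6 samples with no error available; dotted lines mark the lowest value of each table. Gstm1 and Gstm2-ps1 have the largest differences, while Gstm4 is the only gene drawn with the tumor value above the culture value.

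The Mu genes lie together on chromosome 3 within 149.1 kb, from Gstm5 (107895821 to 107898686, plus strand) to Gstm4 (108040408 to 108044894, minus strand). Gstm7 (107926334 to 107931817), Gstm2 (107981702 to 107986453) and Gstm1 (108012255 to 108017973) lie between them on the minus strand. The longest transcript has 8 exons in each Mu gene and 7 in each Pi gene. Gstm1, Gstm2, Gstm4 and Gstm7 encode 218 residues each and Gstm5 encodes 224. Coding sequences of Gstm5 were 71.2% to 72.3% identical to those of the other Mu genes, which were 80.2% to 86.0% identical to each other. Between the classes, identity was 53.9% to 59.3%.

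Gstm1, a major Mu enzyme of mouse liver and a classical NRF2 target, differed most between the settings. It stood at 5.23 log2 CPM in culture, above 65.6% of all genes, and at 2.51 in tumors, above 31.2%. The implied reads were 924 and 126. The difference of −2.72 log2 units was a 6.59-fold lower mean CPM in tumors, and only 0.162% of all genes had a difference as low or lower. With the lowest value subtracted the difference was −2.83 (−3.11 to −2.56), or 7.12-fold. The difference lies far outside counting error, but the spread between mice is not known here.

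A processed pseudogene, Gstm2-ps1 (chromosome 5, 116632908 to 116633564, minus strand, 657 bases in 1 exon), is reported here because it shares much of its sequence with Gstm1. Its name points to Gstm2, but its sequence is nearer to Gstm1: it differs from the Gstm1 coding sequence at 14 of 657 bases (97.9% identity) and from Gstm2 at 100 (84.8%). The longest run that Gstm1 and Gstm2-ps1 share is 127 bases, coding bases 261 to 387 of Gstm1. It is printed as an example of a stretch from which a short read could be placed at either locus:

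Gstm1 and Gstm2-ps1: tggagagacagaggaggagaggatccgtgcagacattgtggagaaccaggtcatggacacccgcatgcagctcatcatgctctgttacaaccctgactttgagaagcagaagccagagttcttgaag

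Gstm2-ps1 stood at 4.97 log2 CPM in culture and 2.27 in tumors, a difference of −2.70 beside −2.72 for Gstm1. Its implied reads were 769 and 105. The ratio of Gstm1 to Gstm2-ps1 in net CPM was 1.20 in both tables. Both levels were several-fold lower in tumors. Since some reads could match both loci, the ratio says little of either locus alone. Exact windows of 50 bases found in another gene made up 18.9% of Gstm1 (14.1% in Gstm2-ps1 and 8.16% in Gstm3) and 46.9% of Gstm2-ps1. Reads of Gstm1 and of the pseudogene cannot be told apart over these stretches, so the level of each is uncertain as a separate value.

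**Figure D2:**
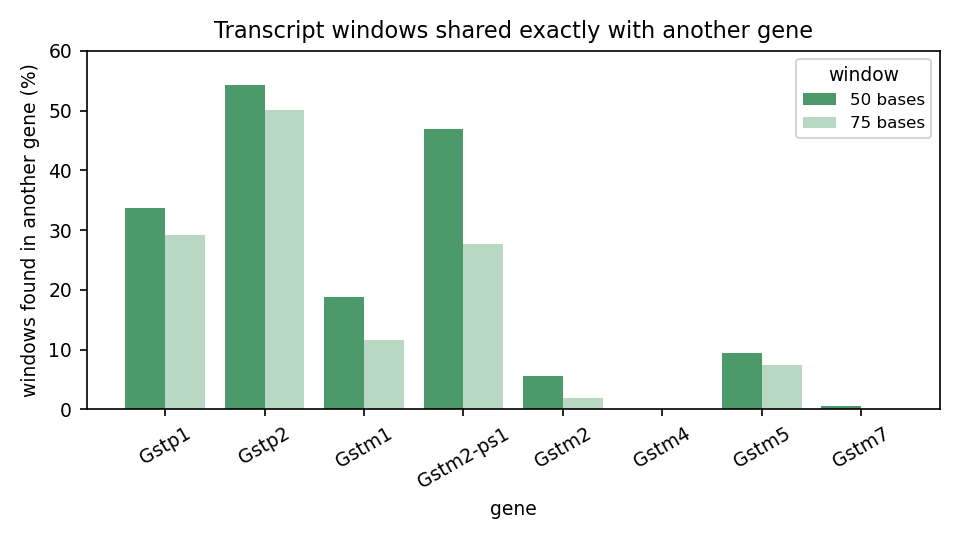
Share of transcript windows (%, vertical axis from 0) that occur exactly in another annotated gene, for windows of 50 bases (dark bars) and 75 bases (light bars). Gstp2 has 54.3% and Gstm2-ps1 46.9% of 50-base windows in common with other genes, while Gstm4 has 0%.

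Gstm7 showed the next largest difference. It stood at 2.22 log2 CPM in culture (104 implied reads) and 0.45 in tumors (21 implied reads), a difference of −1.77. Of all genes, 0.712% had a difference as low or lower. With the lowest value subtracted it was −2.26 (−3.02 to −1.58), a 4.80-fold lower level. Gstm7 shared 0.532% of its 50-base windows with other genes.

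Gstm2, which in human cells conjugates oxidation products of dopamine, was low in both settings. Its level was 1.47 log2 CPM in culture and 0.96 in tumors, from 57 and 35 implied reads, with a difference of −0.51. With the lowest value subtracted it was −0.66, and the counting interval of −1.31 to −0.03 nearly reaches 0.

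Gstm5, the mouse counterpart of human GSTM3 and known mainly from brain and testis, stood at 2.06 and 1.67 log2 CPM from 92 and 65 implied reads. Its difference was −0.39, or −0.46 with the lowest value subtracted, and the interval of −0.94 to 0.02 includes 0. At this depth no difference of Gstm5 was detectable beyond counting error. An antisense gene, 4933431E20Rik, overlaps Gstm5 (107888850 to 107896213), and 9.44% of the 50-base windows of Gstm5 lie in it on the opposite strand. The strand setting of the counting is not given in the sources used here, so reads of the overlap cannot be told apart.

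Gstm4 was the lowest member in culture and the only 1 of the 7 with a higher mean in tumors. Its level was −0.31 log2 CPM in culture, from 8 implied reads over 6 samples, and 0.58 in tumors, from 24. The difference of the 2 means, 0.89, became 1.63 with the lowest value subtracted (interval 0.43 to 2.99). The added constant is larger than the culture signal of this gene, so the size of its difference is poorly fixed.

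Setting the genes side by side needs their lengths, since longer transcripts give more reads. Per kb of exon (the union of all annotated exons), net CPM in culture was 42.8 (40.8 to 44.96) for Gstp1, 26.7 (24.8 to 28.7) for Gstp2 and 25.2 (23.6 to 26.9) for Gstm1. The counting intervals of Gstp2 and Gstm1 overlap, so their order is not fixed, and it turned when the coding length was used. Gstm5 at 2.90 (2.34 to 3.55) and Gstm7 at 2.61 (2.14 to 3.17) per kb also overlap, and turned in the same way. Gstm2 followed at 1.37 (1.04 to 1.77) and Gstm4 at 0.189 (0.081 to 0.372).

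In tumors the Pi genes stood apart from all Mu genes. Gstp1 was at 34.6 net CPM per kb (32.7 to 36.5) and Gstp2 at 22.5 (20.7 to 24.4), with Gstm1 at 3.54 (2.95 to 4.22) and Gstm5 at 2.11 (1.63 to 2.69). The last 3 overlap: Gstm2 at 0.862 (0.602 to 1.20), Gstm4 at 0.582 (0.373 to 0.867) and Gstm7 at 0.544 (0.337 to 0.831).

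**Figure D3:**
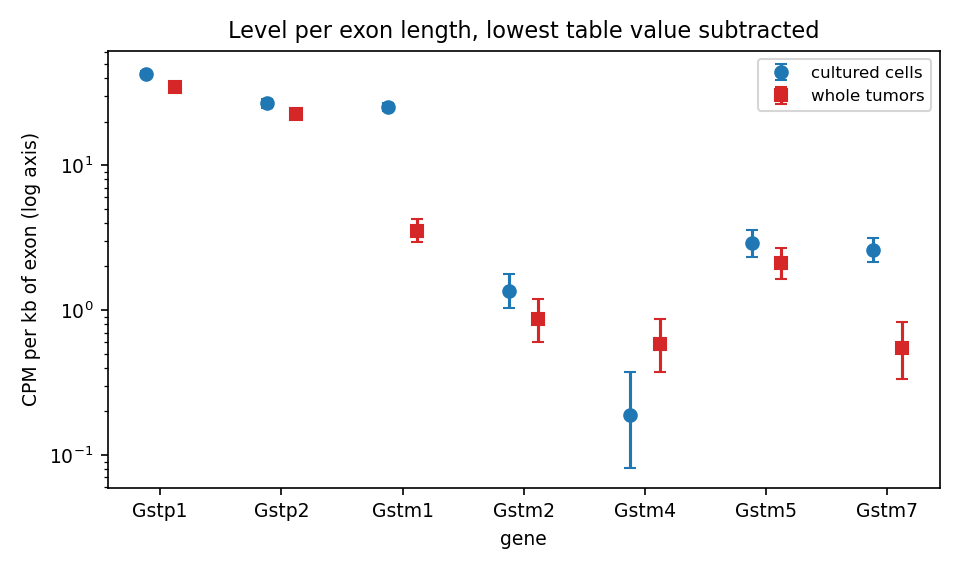
Net CPM per kb of exon (vertical axis, log scale) of the 7 genes in cultured cells (circles) and whole tumors (squares), with 95% Poisson intervals that cover counting error only. Gstm1 lies beside Gstp2 in culture (25.2 and 26.7) and well below it in tumors (3.54 and 22.5).

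Summed over the 7 genes, net CPM was 143.7 in culture and 89.8 in tumors. The Mu genes contributed 47.7 and 11.2 CPM of this, and the Pi genes 96.0 and 78.6. The Pi share was thus 66.8% in culture and 87.5% in tumors. Gstm1 alone accounted for 25.9% of the sum in culture and 5.81% in tumors. Gstm2-ps1, whose reads cannot be fully told apart from those of Gstm1, is not in these sums. It had 31.0 net CPM in culture and 4.33 in tumors, and counting it with the Mu genes would lower the Pi share. The Pi sum is uncertain as well, since Gstp-ps shares windows with both Pi genes. Counted per kb of exon, the Pi share was 68.3% and 88.2%. With the length of the longest transcript in place of all exons it was 75.8% and 91.4%.

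Against all genes, 6 of the 7 members had a lower mean in tumors, where 44.1% of all 17285 genes did. The 523 genes at the lowest value in culture could not be lower in tumors, and only 8 genes were at the lowest value there. The median difference of the members was −0.39, beside 0.10 over all genes. Over the 12676 genes above 1 log2 CPM in both settings the median was −0.03. Of the 7 members, 4 lay below the lower quartile of all genes. Gstm5, itself a member with an interval that includes 0, is the median gene of the 7. These counts describe members chosen with earlier results known, and members that share reads are not separate observations.

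**Figure D4:**
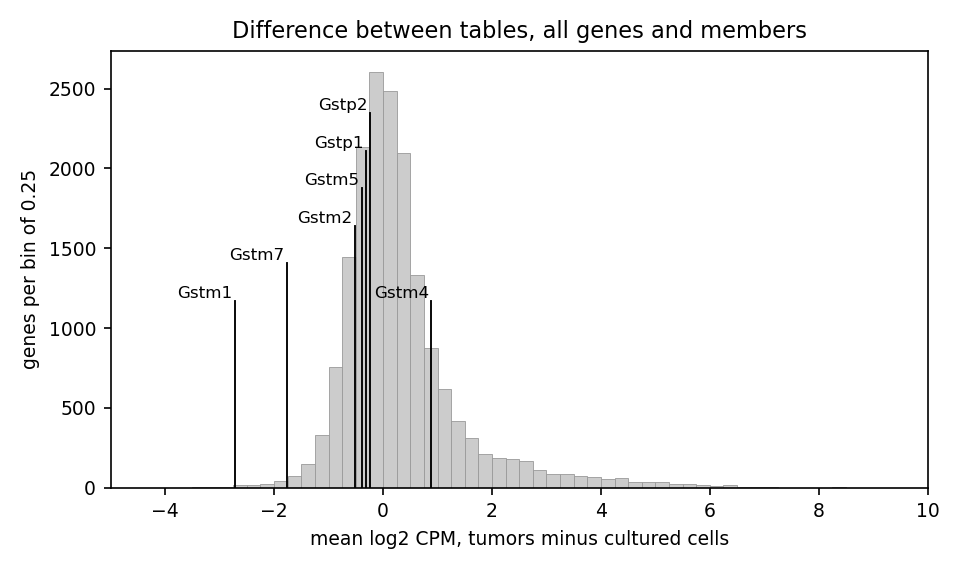
Difference of the authors' mean log2 CPM, tumors minus cultured cells (horizontal axis), for all 17285 genes in bins of 0.25 (grey bars, number of genes from 0), with black lines at the 7 members, whose heights carry no value. Gstm1 at −2.72 and Gstm7 at −1.77 lie in the far lower tail, and the other lower members lie near the lower quartile of −0.32.

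Whole tumors hold cells that the cultures lack, and in bulk RNA fewer cells of a type and less RNA per cell cannot be told apart. Of 9 leukocyte markers, 7 had a row, all 7 were higher in tumors, and 3 of them (Cd8a, Lyz2 and Nkg7) were at the lowest value in culture. Their summed net CPM was 1.89 in culture and 595.7 in tumors. The 4 endothelial markers summed to 0.684 and 129.7, with Kdr at the lowest value in culture, and the 2 measured of 3 red cell markers (Hba-a1 and Hbb-bs, both at the lowest value in culture) to 0 and 209.8. The 6 fibroblast markers summed to 3001 and 5788, with Lum at the lowest value in culture, while collagen genes among them were abundant in cultured cells too. Of the skin keratinocyte markers, 3 of 4 summed to 3.18 and 5.79, with Krt5 at the lowest value in culture. The 3 of 4 muscle markers (Ckm, Myh4 and Tnnt3, all at the lowest value in culture) summed to 0 and 11.4, and the adipocyte marker Fabp4, 1 of 3, gave 0.201 and 11.2. Markers at the lowest value in culture could not come out lower in tumors, so their direction was fixed in advance. The part of these cells in the differences of the glutathione transferases was not tested.

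The label of a melanoma line could be checked only in part. Of 8 melanocyte lineage markers, 3 had a row: Mitf, the lineage's central transcription factor, at 2.67 log2 CPM in culture and 4.23 in tumors, Pmel at −0.31 and 0.05, and Gpnmb at 9.34 and 6.87. Pmel, a defining melanosome gene, was thus near the lowest value in both tables. Gpnmb is also expressed by macrophages. Sox10, Dct, Tyr, Tyrp1 and Mlana are not analysed here.

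The promoters of the Pi genes and of Gstm5 are shown because each holds TGACTCA, letters that resemble part of an antioxidant response element. Gstm7, which also holds letters of such an element as given further on, is not printed. These are the 250 bases before the RefSeq start of each gene (GRCm38.p6), 5′ to 3′ on the gene's strand. Capitals mark every match to TGACNNNGC, the core of the element, or to TGACTCA, the related AP-1 letters, on either strand:

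Gstp1, chr19:4037913-4038162, minus strand: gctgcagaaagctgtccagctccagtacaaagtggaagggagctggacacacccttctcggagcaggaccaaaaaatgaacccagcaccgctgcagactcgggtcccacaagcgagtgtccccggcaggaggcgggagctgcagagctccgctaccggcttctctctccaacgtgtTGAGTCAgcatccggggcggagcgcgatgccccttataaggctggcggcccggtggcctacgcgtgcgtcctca

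Gstp2, chr19:4042222-4042471, minus strand: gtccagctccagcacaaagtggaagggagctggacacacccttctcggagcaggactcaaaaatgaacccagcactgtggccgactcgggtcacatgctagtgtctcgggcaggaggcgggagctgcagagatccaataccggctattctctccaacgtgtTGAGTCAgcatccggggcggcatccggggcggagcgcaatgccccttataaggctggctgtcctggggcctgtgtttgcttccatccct

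Gstm5, chr3:107895604-107895853, plus strand: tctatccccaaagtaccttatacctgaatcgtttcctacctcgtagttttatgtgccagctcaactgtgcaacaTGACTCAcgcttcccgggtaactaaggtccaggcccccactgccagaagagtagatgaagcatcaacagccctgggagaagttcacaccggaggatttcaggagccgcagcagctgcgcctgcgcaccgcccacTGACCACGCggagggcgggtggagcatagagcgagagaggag

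The 2 Pi windows are 88.5% identical over 235 aligned bases. Each holds TGAGTCA, which is TGACTCA on the other strand, at 74 bases before the start in Gstp1 and 89 in Gstp2. GENCODE places the outermost start of Gstp1 (4037985) and of Gstm5 (107895821) inside their windows. That of Gstp2 (4046023) lies upstream of its window. The distances therefore depend on the annotation. On the gene's strand the same letters belong to TGANTCAGC, which both Pi genes hold and 1.19% of all 32851 RefSeq promoters of 300 bases (250 before and 50 after the start) hold. TGACTCA itself is in 5.20% of all promoters and in 3 of the 10 promoters of the members, those of Gstp1, Gstp2 and Gstm5. TGANTCAGC and TGACTCA overlap at these sites, and both were chosen after the sequences were seen.

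Of the 7 members, 2 held the core TGACNNNGC, in 2 of the 10 promoters of the members. Of all promoters, 12.4% hold it. Gstm5 has it 42 bases before its start (TGACCACGC), and Gstm7 has it 129 bases before the second of its RefSeq starts (TGACAAAGC). The first RefSeq start of Gstm7 lies at the outer end of the gene (107931817), and the match is downstream of it. The window before that first start holds no match to the core. Both special cases of the core, the core followed by A (3.04% of all promoters) and TGACTCAGC (0.454%), were in 0 members. No match to any of these forms was found in the windows of Gstm1, Gstm2 or Gstm4. A match by letters is not a binding site, and these windows cover only a small part of the sequence around each gene.

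A list of 10 genes of glutathione turnover covers its making, recycling, breakdown and the export of its conjugates. Orders within this list and the next lists are of log2 CPM, with no correction for length. Of the 10 genes, 8 had a row, and 6 were lower and 2 higher in tumors, with a median difference of −0.88 (range −2.31 to 2.46) beside the 0.10 of all genes. Both ends of that range are genes of breakdown, named after their values were seen: Chac1, which cleaves glutathione, at −2.31, and Ggct, which acts on its gamma-glutamyl products, at 2.46. The highest of them in culture was Abcc1, which exports glutathione conjugates, at 7.56 log2 CPM. The highest in tumors was Gsr, glutathione reductase, at 6.85. Gss, which makes glutathione from its dipeptide precursor, was lowest in both at 1.17 and 0.90.

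Among other genes listed with the glutathione transferases, 10 of 18 had a row. In tumors 4 were lower and 6 higher than in culture, with a median difference of 0.47 (range −1.61 to 5.10), on the other side of 0 from the Mu and Pi median of −0.39. Several of these 10 genes, some lower and some higher, lay close to the lowest value of a table. The median of this list, and its side of 0, are therefore poorly fixed. Gstcd was highest in culture at 5.87 log2 CPM and Mgst3, a microsomal enzyme, in tumors at 6.36. Hpgds, a prostaglandin D synthase of mast cells and other immune cells, was lowest in culture at −0.93. Gsta2, an Alpha enzyme known from liver, was lowest in tumors at −0.59.

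NRF2 and its partners were measured with 6 of 6 genes, of which 1 was lower and 5 higher in tumors (median difference 0.34, range −0.29 to 0.88). Nfe2l2 itself was the highest of them in both tables, at 7.70 log2 CPM in culture and 8.25 in tumors. These means pool control and knockout samples, so they do not check the deletion, and a transcript of a gene with a small deletion can still be sequenced. The lowest were Maff in culture at 4.90 and Keap1, the inhibitor, in tumors at 5.28.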

How the data were processed

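Poly(A) RNA of 12 samples was sequenced. The genotype of the mouse model is not reported here in full. Per the submitters' notes, the mouse build was mm10, and the tools were TopHat2 2.1.1 and Bowtie2 2.3.2, with FastQC for read quality. How reads were counted, with which annotation, and how means were formed is not stated in the sources used here.

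The deposited tables, 1 for cultured cells and 1 for tumors, hold for each gene the authors' mean level in log2 CPM over 6 samples. They also hold the authors' log2 fold change, p-value and adjusted p-value of knockout against control. These columns were not used, printed or compared. Planned tests of knockout against control needed per-sample values and were not run.

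Symbols were matched to GENCODE M21 (GRCm38) for coordinates, lengths and transcript sequences, and to RefSeq promoters (GRCm38.p6). Levels were taken to the linear scale, the lowest value of the table was subtracted, and the step between low values was read from the values within 20 steps. The recovery of a known step and constant was tested on simulated data, which does not bear on how the authors formed the means. Exact intervals (95%) were computed on implied reads. Coding sequences of principal transcripts were aligned globally, and transcript windows of 50 and 75 bases were matched exactly. Motifs were counted on both strands of 300 bases. Python 3.11.15, numpy 2.4.6, pandas 2.3.3, scipy 1.17.1, matplotlib 3.10.9 and biopython 1.88 were used.

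The members, lists and rules were chosen with earlier results of these data known. All members were named. From other lists only the highest and lowest gene of a table was named. Exceptions were markers and Gstm2-ps1, Gstp-ps, 4933431E20Rik, Gstm3, Chac1 and Ggct, which were chosen after values or sequences were seen. Alternatives were other lengths, centrings, a constant of 1 CPM, rows above 1 log2 CPM and other motifs.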

Additional observations from a re-analysis of the deposited data

How the results depend on the processing

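No difference between tumors and culture changed direction in any of the 7 members when centred on all genes or on genes above 1 log2 CPM, on the log2(CPM + 1) scale, or with the lowest value subtracted (chosen after seeing the data); the median was −0.49, −0.37, −0.31 and −0.46 under these in turn, beside −0.39. The Pi share per kb in culture was 75.8% with the longest transcript in place of all exons (68.3%). The promoter count was 2 members for TGACNNNGC, 0 for that core followed by A and 0 for TGACTCAGC, both special cases of the core. Percentiles of single genes fall when genes at or under 1 log2 CPM are left out, to 53.97 in culture and 16.3 in tumors for Gstm1. No paired analysis was possible because the tables used give 1 mean over 6 samples. Leaving out replicates, other count tests and a filter on counts were not run for the same reason. Depth limits Gstm4, with 8 implied reads in culture, most.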
